A study of Zanthoxylum armatum with 24 samples.

Results

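Genes whose IDs run by number from Zardc17435 to Zardc17532 in the genome annotation of *Z. armatum* were examined for their expression in male flowers relative to female flowers. Of the 98 IDs in this stretch, 53 reached 1 FPKM in at least 3 of 23 libraries and were kept as members, out of 38734 genes that met the same limit among the 60592 genes listed. FPKM, fragments per kilobase of transcript scaled to the number of mapped fragments, is a level corrected for gene length and for library depth. The other 45 IDs are accounted for as 32 that were 0 in every library and 13 that were above 0, of which the highest single value was 0.850 FPKM; 6 of those 13 averaged lower in male than in female libraries and 7 higher. The stretch was chosen by the male over female values of these same libraries, so the male over female ratios and differences below are a description and carry no test; tests were run only on changes between stages, including changes of the ratio itself.

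*Z. armatum*, green prickly ash, is a shrub or small tree of the citrus family grown for its pungent fruit, and in dioecious trees each plant bears flowers of a single sex. The floral samples were undifferentiated primordia (M1 in males and F1 in females), primordia initiation (M2 and F2), primordia differentiation (M3 and F3), and development and maturation (M4 and F4). Each library was made from floral buds of several untreated trees of one sex mixed together. The sex of the trees was checked again after flowering, and the study calls the 3 mixes of a stage independent biological replicates. Whether mixes of the same stage or of different stages shared trees is not stated. Errors therefore describe the spread between mixes and may be partly technical, and sex cannot be told apart from the particular male and female trees that were sampled. There were 3 libraries in each group except M2, which had 2. The stages were collected one after another from September on, so a change between stages cannot be told apart from a change of season.

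In many plants unisexual flowers form when the stamens or the carpels stop developing. In the flower model of Arabidopsis, B class genes such as AP3 and PI specify petals and stamens, while STK and SHP1 act in ovules and carpels. Summed over 9 B class genes, the level was 149 to 170 FPKM in M4 and 13.1 to 15.7 FPKM in F4, and it was 27.9 to 38.3 FPKM in M3 and 2.91 to 3.83 FPKM in F3. Summed over 4 ovule and carpel genes, it was 13.3 to 13.7 FPKM in M4 and 36.0 to 42.2 FPKM in F4, but 2.21 to 2.62 FPKM in M3 and 1.53 to 2.02 FPKM in F3. The ranges of the sexes did not overlap in any of these pairs. The ovule and carpel sum was higher in males at stage 3 and lower in males at stage 4. Both sums were under 10 FPKM at stages 1 and 2. The B class sum was already apart there, at 4.01 to 5.09 FPKM in M1 against 0.326 to 0.706 FPKM in F1. It was 7.33 to 7.78 FPKM in M2 against 0.207 to 0.531 FPKM in F2. In M1, 8 of the 9 B class genes were 0 in every library. The ovule and carpel sums of the sexes overlapped at stages 1 and 2. The study had chosen these marker genes on the same samples. By the study's morphology, stamen and pistil primordia could not yet be seen at stage 2. Buds of the sexes could be told apart at stage 3, and stamens and ovules were complete at stage 4. Male and female samples of stage 4 thus differ in the organs they hold. For stages 1 to 3 the marker levels alone cannot show which organs were present. In whole samples fewer cells of a type cannot be told apart from less RNA per cell. How much a difference in organs or cells adds to the values of the members was not tested at any stage. All 23 libraries lay nearest to a library of their own group, and relative depth ranged from 0.853 to 1.09. RNA integrity, a score of how intact the RNA was, is listed by the study. It was lower in every F3 and F4 sample than in any M3 or M4 sample. It was also lower in F3 than in F1 and in M3 than in M1. How much this adds to the ratios at stages 3 and 4 or to the stage changes was not tested.

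The files pair none of the 53 members with a gene name or function, so the members are given by ID. The sources used here do not say whether consecutive IDs lie side by side on a chromosome. The deposited values of all 53 members fell on whole multiples of a step that is fixed for each gene and library, within 1.99e-06 of a whole number, so the reads behind each value could be counted. The median member had a median of 145 reads per library; 32 members had at least 50 reads in every library and 9 had fewer than 10 in at least 1.

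Male flowers had lower levels than female flowers for most members of the stretch, and a minority went the other way. The ratio of mean FPKM, male over female, had a median over the 53 members of 0.765 at stage 1, 0.594 at stage 2, 0.661 at stage 3 and 0.651 at stage 4. It was below 1 in 35, 39, 40 and 39 members at the 4 stages in that order, whereas 50.2%, 50.3%, 50.3% and 49.6% of all genes tested were below 1. Ratios of 0.5 or less were found for 6 members at stage 1 and for 15 or 16 at each later stage. The share of all genes tested at 0.5 or less was not computed, so these counts are read no further. The lowest single ratio was 0.158, of Zardc17454 at stage 3, and the highest was 1.89, of Zardc17510 at stage 1; both rest on weakly expressed genes that are described further on. On the scale of log2(FPKM + 1), which pulls weak genes toward 0, the median difference of the members was -0.27, -0.54, -0.44 and -0.47 from stage 1 to stage 4, and that of all genes tested lay between -0.0019 and 0.0046.

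Averaged over the 4 stages as a geometric mean, the ratios of the members fell into 2 sets with an empty interval between them. In 29 members the mean ratio was 0.371 to 0.697, and in the other 24 it was 0.810 to 1.69. No member lay between 0.71 and 0.80, and 7.86% of all genes tested did. The bounds of this interval were drawn around the gap after the values were seen, so its emptiness is a description only. A limit of 0.75 inside this interval, set after the values were seen, is used below to speak of the lower members and the other members. Of all genes tested, 14.4% had a mean ratio of 0.75 or less, and the values that chose the stretch are the same ones that give this count. Among the 32 members with at least 50 reads in every library, 14 had mean ratios of 0.434 to 0.637 and 18 had mean ratios of 0.810 to 1.69. Leaving out any one library kept between 29 and 31 members at or below the limit; the members that crossed it were Zardc17473 and Zardc17502, both of which had libraries with 0 reads.

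**Figure D1:**
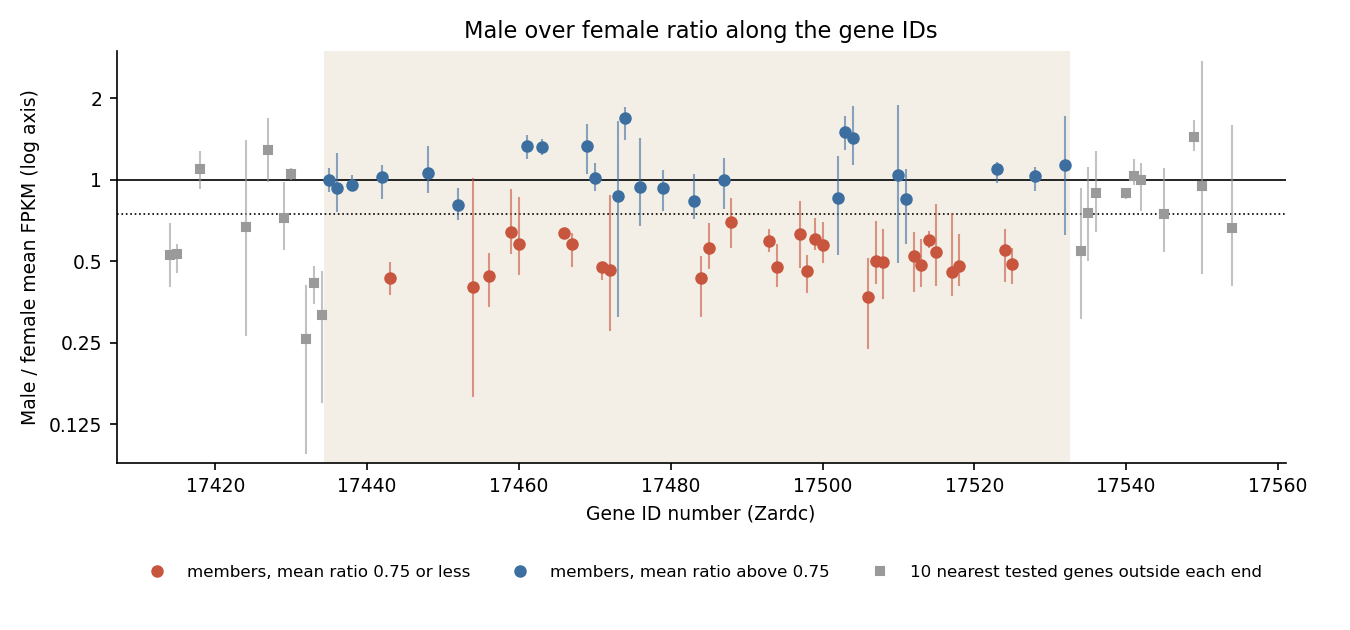
Mean male over female ratio of FPKM (y, log axis) against the number in the gene ID (x) for the 53 members in the shaded stretch and for the 10 nearest tested genes outside each end. Points are geometric means over the 4 stages, vertical lines run over the 4 single-stage ratios, the solid line marks a ratio of 1 and the dotted line 0.75. The 29 lower members lie at 0.371 to 0.697 and alternate with 24 members at 0.810 to 1.69.

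The lower members were interleaved with the others along the IDs. The 53 members formed 19 runs of neighbours on the same side of 0.75, the longest being 7 lower members from Zardc17488 to Zardc17500 and 5 other members from Zardc17473 to Zardc17483. Lower members made up 2 of 8 members from Zardc17435 to Zardc17455, 7 of 16 from Zardc17456 to Zardc17483, 9 of 10 from Zardc17484 to Zardc17501, 0 of 3 from Zardc17502 to Zardc17505, 11 of 14 from Zardc17506 to Zardc17525 and 0 of 2 above that. These borders were drawn after the values were seen. The outermost lower members were Zardc17443 and Zardc17525.

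When all IDs of the annotation were laid out in blocks of 98 numbers starting from this stretch, 564 blocks held at least 20 genes tested. The median block had 11.9% of its genes at or below a ratio of 0.75, against 54.7% in the stretch, and 2 other blocks had a larger share. By the median log2 difference, -0.49 in the stretch, 1 block was lower. Since the stretch was picked for this, its place among the blocks is a description of the choice.

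The borders of the stretch were not sharp at its low end. Just inside, Zardc17435 averaged a ratio of 1.0 and Zardc17436 one of 0.937, whereas just outside, the nearest tested genes Zardc17434 and Zardc17433 averaged 0.317 and 0.415. Zardc17433 was 8.38 ± 1.01 FPKM in M1 and 20.05 ± 5.35 FPKM in F1, and 6.73 ± 1.06 FPKM in M4 and 19.3 ± 1.27 FPKM in F4 (SD, n = 3 each). At the high end, the last members Zardc17528 and Zardc17532 averaged 1.03 and 1.14. Outside that end, Zardc17534 averaged 0.544 on means of at most 1.08 FPKM, and Zardc17535 had ratios of 0.965, 1.1, 0.597 and 0.50 from stage 1 to stage 4, so it was lower in males at the later stages. Of the 10 nearest tested genes before the stretch 7 had a mean ratio of 0.75 or less, and of the 10 after it 3 did.

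In the 29 lower members, the typical male level was 0.49 to 0.60 of the female level, and single members moved more widely between stages. Their median ratio was 0.60 at stage 1, 0.506 at stage 2, 0.489 at stage 3 and 0.498 at stage 4. All 29 were below 1 at stages 1, 3 and 4, and 28 were at stage 2, the exception being Zardc17454 with a ratio of 1.01. Zardc17459 had ratios of 0.533 to 0.928 and Zardc17472, which had as few as 4 reads in a library, of 0.276 to 0.880, with the highest value at stage 1 in both. In 12 of the 29, stage 1 had the highest ratio of the 4 stages, and in 2 it had the lowest. The same shares over all genes tested were not computed, so these counts are read no further.

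The difference in the lower members was seen in each male library. Relative to the female mean of the same stage, the median level of these 29 members was 0.571, 0.613 and 0.574 in the M1 libraries, 0.538 and 0.486 in M2, 0.511, 0.424 and 0.533 in M3, and 0.490, 0.501 and 0.463 in M4, whereas it was 0.950 to 1.04 over the 12 female libraries. For the other 24 members the same value was 0.935 to 1.14 over male libraries and 0.946 to 1.02 over female libraries. The male and female ranges were thus far apart for the lower members, which were picked for it, and overlapped for the others. Each female library is part of the mean it is set against, which holds the female values near 1. Summed without Zardc17518, the strongest member, the lower members reached 149 to 200 FPKM in male libraries and 288 to 350 FPKM in female libraries.

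Counting members in which every male library was below every female library of the stage gave 23 at stage 1, 33 at stage 2, 33 at stage 3 and 31 at stage 4. Over all genes tested the share was 21.3% at stage 1, 24.2% at stage 2, where there are 2 male libraries, 22.6% at stage 3 and 26.3% at stage 4. At all 4 stages together 21 members were separated in this way, against 3.04% of all genes tested, and 5 members were separated the other way, against 4.91%. By means alone, 29 members were lower in males at all 4 stages, against 15.8% of all genes tested, and 6 were higher at all 4, against 16.2%; the other 18 changed side between stages. These counts come from the contrast that chose the stretch and are read no further.

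**Figure D2:**
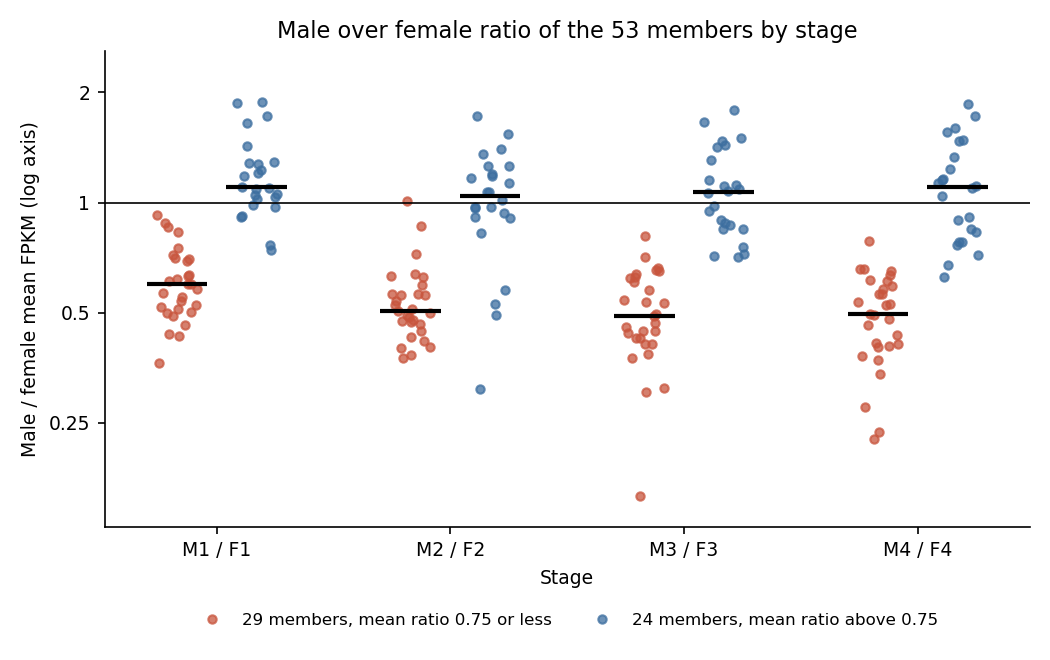
Male over female ratio of mean FPKM (y, log axis) of the 53 members at each stage (x). Each point is a member, shown left for the 29 with a mean ratio of 0.75 or less and right for the 24 others, and black bars are medians. The medians of the lower members lie at 0.60, 0.506, 0.489 and 0.498, and those of the others at 1.1, 1.04, 1.07 and 1.1.

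Zardc17518 was the most abundant member and carried 50.4% to 78.1% of the summed FPKM of the stretch in a library, ranking between place 9 and place 63 among all genes tested. It had 1157, 1302 and 1174 FPKM in M1, against 1888, 2093 and 1773 FPKM in F1. At stage 2 it had 1277 and 1432 FPKM in M2, against 3289, 3191 and 2629 FPKM in F2. At stage 3 it had 1179, 967 and 1103 FPKM in M3, against 2586, 2348 and 1989 FPKM in F3. The female level was highest at F2, and no male library reached any female library at any stage. At stage 4 it had 813, 882 and 956 FPKM in M4, against 2022, 2413 and 2089 FPKM in F4. Its ratios from stage 1 to stage 4 were 0.632, 0.446, 0.469 and 0.406, and its values rest on 2538 to 4436 reads in male libraries and 5447 to 11107 reads in female libraries. It is also the shortest member, at 0.198 of the median length of the members as implied by the value of 1 read.

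Zardc17506 had the lowest mean ratio, 0.371, and its ratio was smaller at the later stages. It had 6.25, 7.44 and 4.97 FPKM in M1, against 11.8, 13.7 and 10.9 FPKM in F1. It had 2.16, 2.78 and 1.56 FPKM in M4, against 8.22, 12.4 and 6.75 FPKM in F4. The ratios were 0.513 and 0.511 at stages 1 and 2 but 0.304 and 0.237 at stages 3 and 4, and the sexes did not overlap at any stage. The next lowest of the log2 differences averaged over stages, beside that of Zardc17518 at -1.05, belonged to Zardc17484 at -1.13, Zardc17456 at -1.08, Zardc17498 at -1.02 and Zardc17494 at -1.0, against -1.20 for Zardc17506. In all of these, every male library was below every female library at all 4 stages.

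Zardc17456 was 5.09 ± 0.597 FPKM in M1 and 11.8 ± 0.303 FPKM in F1, and 10.5 ± 1.1 FPKM in M3 and 19.5 ± 2.77 FPKM in F3 (SD, n = 3 each). Zardc17498 was 7.56 ± 0.473 FPKM in M1 and 14.6 ± 0.803 FPKM in F1, and 6.59 ± 0.319 FPKM in M4 and 17.3 ± 0.963 FPKM in F4. Zardc17494 was 12.2 ± 0.432 FPKM in M4 and 29.7 ± 1.88 FPKM in F4. For each of these pairs the gap between the sexes was several times the larger SD.

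The steadiest ratio of the stretch was that of Zardc17466. Its level was higher at stage 4 than at stage 1 in both sexes, with 5.35, 6.73 and 5.13 FPKM in M1, against 9.57, 8.02 and 9.56 FPKM in F1. At stage 4 it had 11.4, 12.6 and 9.65 FPKM in M4, against 18.2, 17.2 and 17.7 FPKM in F4. The ratio held at 0.634, 0.627, 0.654 and 0.635 over the 4 stages while the levels moved. Zardc17514, at 31.8 FPKM on average, was likewise steady, with ratios of 0.60, 0.559, 0.649 and 0.593. Zardc17443 and, on the higher side, Zardc17463 were the other 2 members with the smallest SD over stages; the ratios of Zardc17443 were 0.376 to 0.498. Members near the median of the stretch were Zardc17493, Zardc17459 and Zardc17485, with mean ratios of 0.595, 0.641 and 0.558.

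Levels and lengths of the lower members overlapped with those of the others. Mean FPKM over all libraries had a median of 6.87 in the 29 lower members and 12.2 in the 24 others, with ranges of 1.3 to 1763 and 0.586 to 194, and all genes tested had a median of 7.77. Length relative to the median member, implied by the value of 1 read, had a median of 1.0 and a range of 0.198 to 3.58 in the lower members, and a median of 1.09 and a range of 0.362 to 3.56 in the others.

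Among the 24 other members, 12 had mean ratios between 0.9 and 1.1, 5 lay between 0.75 and 0.9, and 7 were above 1.1. Those above 1.1 were Zardc17461, Zardc17463, Zardc17469, Zardc17474, Zardc17503, Zardc17504 and Zardc17532. Of them, 5 had every male library above every female library at all 4 stages, and Zardc17469 did so at 3 stages. In the order of the IDs they fell into a few places, with Zardc17461 and Zardc17463 next to each other among the members, and likewise Zardc17503 and Zardc17504, while the lower members Zardc17460, Zardc17466, Zardc17500 and Zardc17506 stood close by.

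Zardc17474 was the clearest exception, with a mean ratio of 1.69. It had 9.62, 10.1 and 7.07 FPKM in M1, against 5.21, 4.83 and 5.48 FPKM in F1, and 9.28 and 10.3 FPKM in M2, against 7.02, 6.74 and 7.19 FPKM in F2. At stage 3 it had 11.1, 11.0 and 10.1 FPKM in M3, against 6.31, 6.03 and 5.68 FPKM in F3, and at stage 4 it had 11.3, 12.4 and 11.0 FPKM in M4, against 6.56, 6.15 and 5.92 FPKM in F4. The lowest male library of a stage was above the highest female library at each of the 4 stages, on 146 to 254 reads in male libraries and 99 to 154 reads in female libraries.

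Zardc17503 had 4.24, 4.27 and 4.37 FPKM in M1, against 3.27, 3.38 and 3.34 FPKM in F1. It had 3.43, 3.60 and 3.12 FPKM in M4, against 2.02, 1.96 and 1.88 FPKM in F4. Its ratio was 1.29 at stage 1 and 1.73 at stage 4, with 1.54 and 1.5 between them. Its neighbour by ID, Zardc17504, had ratios of 1.87, 1.17, 1.66 and 1.13, so it was above 1 at all stages but by much less at stages 2 and 4. It was 38.4 ± 2.80 FPKM in M1 and 20.5 ± 4.16 FPKM in F1, and 29.4 ± 1.87 FPKM in M4 and 25.9 ± 0.440 FPKM in F4 (SD, n = 3 each).

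Zardc17461 was 10.3 ± 0.510 FPKM in M1 and 8.13 ± 0.473 FPKM in F1, and 21.6 ± 1.01 FPKM in M4 and 14.7 ± 1.62 FPKM in F4 (SD, n = 3 each). Zardc17463 kept ratios of 1.24 to 1.42. Zardc17469 was 10.9 ± 0.919 FPKM in M1 and 10.3 ± 1.51 FPKM in F1, where the libraries overlapped, and 21.8 ± 0.603 FPKM in M4 and 13.6 ± 1.52 FPKM in F4, where they did not. Its ratio was 1.05, 1.26, 1.48 and 1.60 from stage 1 to stage 4. Zardc17523, the last of the named members above 0 on the log2 scale, had ratios of 0.973 to 1.16 on a mean of 1.18 FPKM, its male and female libraries overlapped at every stage, and its averaged log2 difference was 0.08, but -0.02 under quantile normalization.

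**Figure D3:**
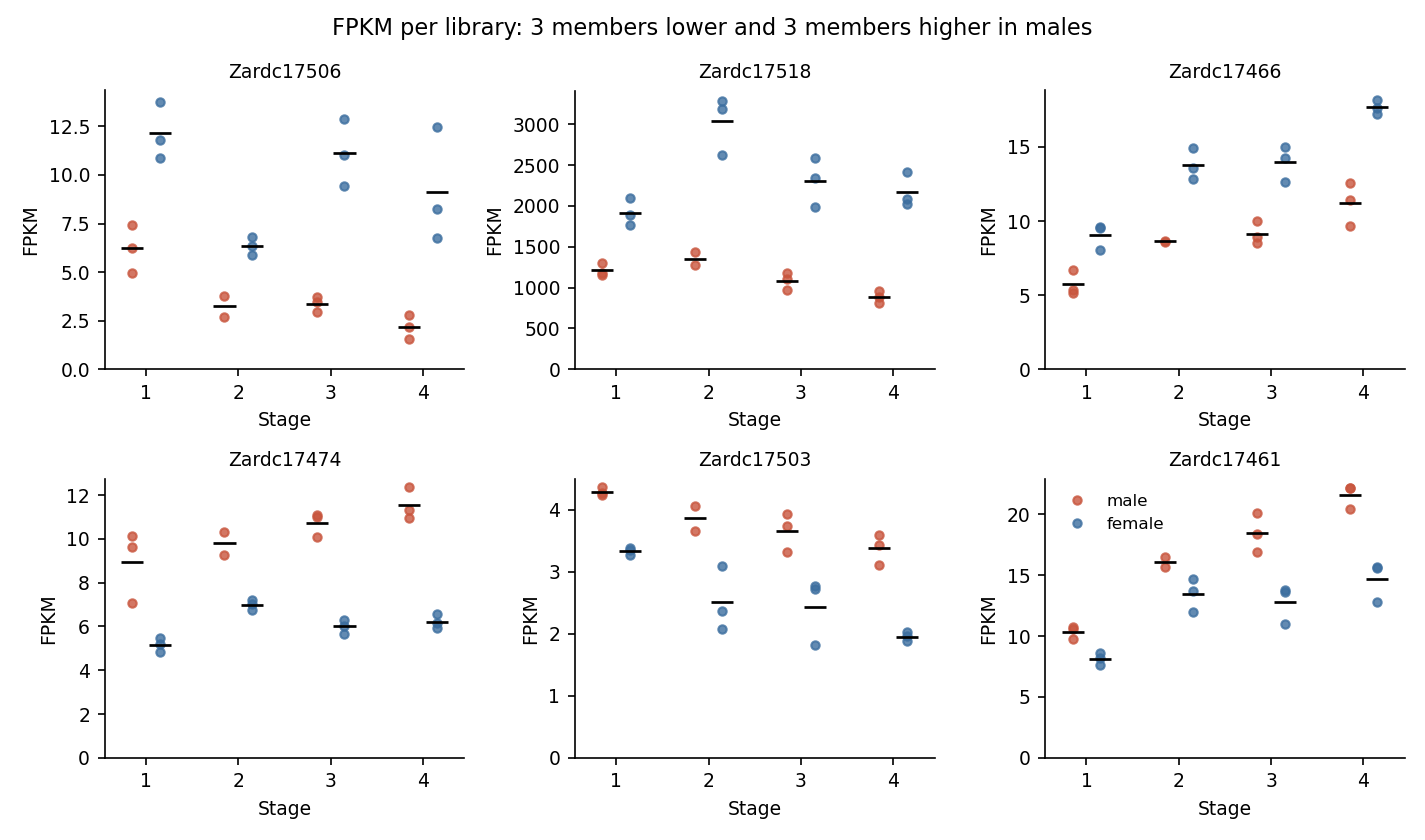
FPKM in each library (y, linear axis from 0) by stage (x) for Zardc17506, Zardc17518 and Zardc17466, which were lower in males, and Zardc17474, Zardc17503 and Zardc17461, which were higher. Male libraries are left and female libraries right at each stage, and black bars are means. In all 6 members the male and female libraries of a stage do not overlap at any stage.

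Several members had no steady side. The difference in log2(FPKM + 1) had both signs among the 4 stages in 18 members. Of all genes tested, 15.8% had a lower male mean at all 4 stages and 16.2% a higher one, against 29 and 6 members. A change of side was thus less common among the members, which were chosen by this contrast, than among all genes tested. The log2 difference varied most over stages in Zardc17454, Zardc17510 and Zardc17532. Zardc17454 had 1.17 and 1.04 FPKM in M2, against 1.91, 0.787 and 0.585 FPKM in F2. It had 0.165, 0.315 and 0.798 FPKM in M3, against 2.09, 3.63 and 2.35 FPKM in F3. The sexes overlapped at stages 1 and 2 and were apart at stages 3 and 4, where the ratios were 0.158 and 0.226, but these values rest on 1 to 12 reads in male libraries and 4 to 27 reads in female libraries.

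Zardc17510 had ratios of 1.89, 0.495, 0.867 and 1.48 on 7 to 44 reads. Its libraries had 3.71, 2.79 and 2.38 FPKM in M1, against 1.59, 1.65 and 1.47 FPKM in F1, and 1.41 and 1.68 FPKM in M2, against 3.40, 2.76 and 3.23 FPKM in F2. It was therefore apart in opposite directions at stages 1 and 2. Zardc17473 and Zardc17502, with at most 19 and at most 9 reads in any library, had ratios of 0.310 to 1.65 and of 0.527 to 1.23, and male and female libraries were apart at 1 stage, stage 2, in Zardc17473 and at no stage in Zardc17502.

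Not all unsteady members were weak. Zardc17476, with a mean of 194 FPKM the second most abundant member, had 235, 228 and 230 FPKM in M1, against 160, 153 and 171 FPKM in F1. It had 172, 163 and 182 FPKM in M4, against 272, 254 and 240 FPKM in F4. Its ratio was 1.43 at stage 1, 0.825 at stage 2, 0.979 at stage 3 and 0.675 at stage 4, and male and female libraries were apart at stages 1, 2 and 4. Zardc17483, with a mean of 129 FPKM, had ratios of 1.05, 0.905, 0.723 and 0.717. At the low end of the IDs, Zardc17435 was 12.3 ± 0.336 FPKM in M1 and 11.99 ± 1.22 FPKM in F1 and its libraries overlapped at all 4 stages, while Zardc17436 was above 1 at stage 2 and below 1 at the other stages. Zardc17528 had 24.4 ± 1.53 FPKM in M4 and 26.8 ± 1.94 FPKM in F4, and ratios of 0.911 to 1.12.

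The ratios of a member at different stages come from different libraries, so their likeness over stages could be described. Over the 53 members, the correlation of the log2 ratio between pairs of stages was 0.541 to 0.843 for the 6 pairs, and over the 37725 genes with a value above 0 in each group it was 0.334 to 0.540. The SD of the log2 difference over the 4 stages had a median of 0.23 in the members and 0.27 in all genes tested. Genes within a library are not independent, and the members had been chosen for a difference seen in several stages. Libraries of different stages may also come from the same trees, so likeness over stages may repeat differences between those trees.

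Stage changes within a sex had no part in the choice of the stretch and were tested by limma on log2(FPKM + 1) over all genes tested, with Benjamini-Hochberg adjusted p of at most 0.05 and a log2 fold change of at least 1 in size as the limits. In M3 vs M1, 1 member was called higher and 3 lower, where the shares over all genes tested were 2.77% and 3.45%. In M4 vs M3, 2 members were called higher, against 4.5% of all genes tested, and 0 lower, against 3.22%, also 0 with an unadjusted p at the same fold. In F3 vs F1, 0 members were called higher, against 3.04%, also 0 with an unadjusted p, and 1 lower, against 3.48%. In F4 vs F3, 2 were called higher, against 4.25%, and 0 lower, against 3.4%, also 0 with an unadjusted p.

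By adjusted p alone, with no limit on the fold, 23 members passed in M3 vs M1, against 40.3% of all genes tested, 19 in M4 vs M3, against 39.4%, 22 in F3 vs F1, against 42.5%, and 15 in F4 vs F3, against 41.3%. The calls fell on 5 members, and 48 members were called in none of the 4 steps. Those same 48 kept a log2 change under 1 in size in all 4 steps, as did 81.4% of all genes tested. The median size of the log2 change of the members was 0.26 in M3 vs M1, 0.21 in M4 vs M3, 0.29 in F3 vs F1 and 0.24 in F4 vs F3, against 0.29, 0.28, 0.30 and 0.29 over all genes tested. Signed medians of the members were -0.16 in M3 vs M1 and between 0.03 and 0.04 in the other steps. Those of all genes tested were between -0.008 and 0.004 in the 4 steps.

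Zardc17532, the last ID of the stretch, changed most. It had 2.98, 4.18 and 3.41 FPKM in M1 and 9.39, 7.07 and 7.95 FPKM in M3, and it reached 99.7, 96.7 and 107 FPKM in M4. In females it had 3.32, 2.27 and 3.32 FPKM in F1 and 5.74, 7.52 and 5.38 FPKM in F3, and it reached 155, 161 and 170 FPKM in F4. It was thus weak in both sexes up to stage 3 and strong at stage 4, and more so in females. The log2 fold change was 3.49 in M4 vs M3 (SE 0.13, limma with Benjamini-Hochberg adjusted p = 3.0e-14) and 4.51 in F4 vs F3 (SE 0.13, adjusted p = 9.8e-16). In M3 vs M1 it was 1.02 (SE 0.13, adjusted p = 3.6e-06), a call that fell under the fold limit, at 0.93 and 0.92, without M1 replicate 1 or without M3 replicate 1.

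Zardc17484 fell in both sexes, and of the 3 members called lower in M3 vs M1 it had the largest change. Among males it had 5.92, 8.17 and 7.35 FPKM in M3, against 34.9, 36.0 and 34.2 FPKM in M1. Among females it had 26.5, 23.0 and 19.5 FPKM in F3, against 69.1, 65.0 and 66.5 FPKM in F1. No library of stage 3 reached any library of stage 1 of the same sex. The log2 fold change was -2.15 in M3 vs M1 (SE 0.10, limma with Benjamini-Hochberg adjusted p = 6.0e-13) and -1.51 in F3 vs F1 (SE 0.10, adjusted p = 1.5e-10), so it fell in both sexes while it was lower in males throughout.

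Zardc17497 had 6.57, 6.70 and 7.20 FPKM in M4, against 3.03, 2.85 and 2.75 FPKM in M3. In females it had 12.1, 12.05 and 12.3 FPKM in F4, against 3.71, 3.36 and 5.04 FPKM in F3. It was called higher in both sexes, with a log2 value of 1.40 in F4 vs F3 (SE 0.13, limma with Benjamini-Hochberg adjusted p = 2.6e-08) and of 1.01 in M4 vs M3 (SE 0.13, adjusted p = 2.3e-06). The male call fell just under the fold limit, at 0.99 and 0.98, without M3 replicate 3 or without M4 replicate 3.

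The other pair of calls in M3 vs M1 lay at the limit. Zardc17459 was 2.43 ± 0.646 FPKM in M3 and 5.87 ± 1.0 FPKM in M1 (SD, n = 3 each), and its log2 change was -1.01 (SE 0.20, limma with Benjamini-Hochberg adjusted p = 3.1e-04). Zardc17517 was 0.926 ± 0.204 FPKM in M3 and 2.91 ± 0.580 FPKM in M1, and its log2 change was -1.01 (SE 0.24, adjusted p = 1.9e-03). Scaling all libraries to the same total FPKM, an alternative added after seeing the data, brought them to -0.97 and -0.98 and left 2 calls in this step. Zardc17459 also fell under the fold limit, at -0.90 and -0.84, without M1 replicate 2 or without M3 replicate 1. Zardc17517 did so, at -0.94 to -0.99, without any one of M1 replicate 1, M1 replicate 3, M3 replicate 2 or M3 replicate 3.

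**Figure D4:**
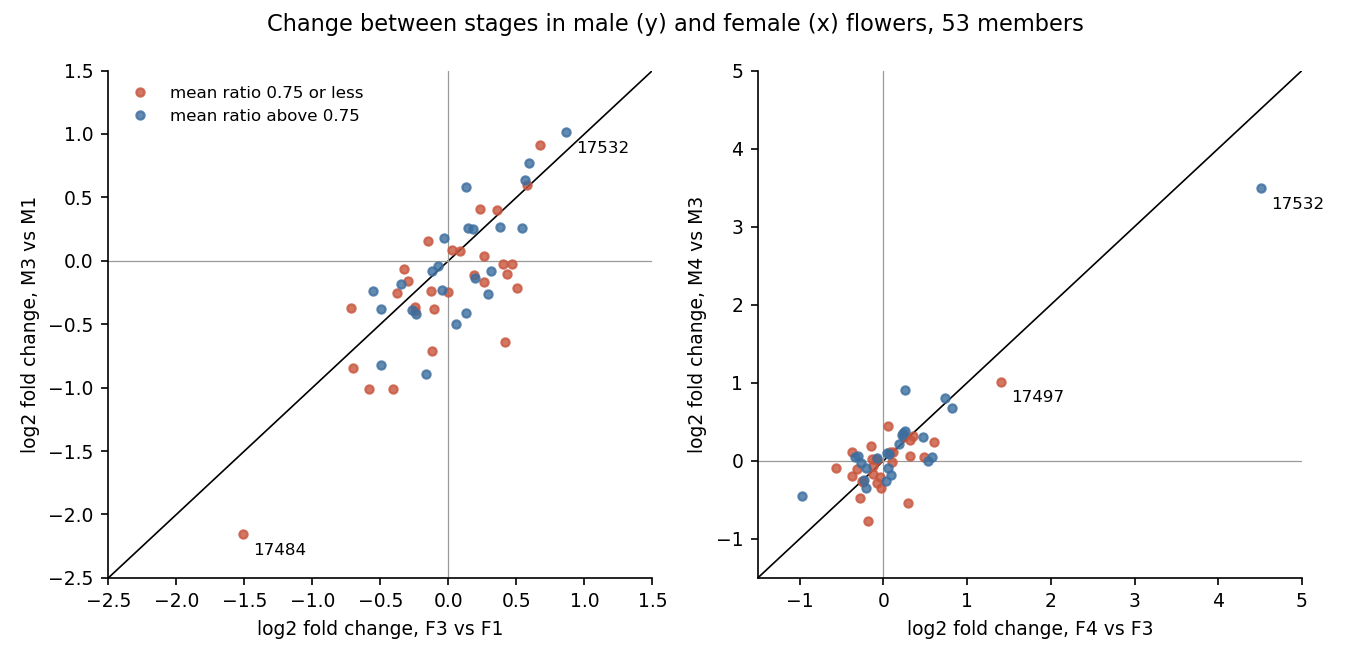
Fitted log2 fold change between stages in males (y) against females (x) for the 53 members, stage 3 over stage 1 on the left and stage 4 over stage 3 on the right. The diagonal marks equal change in both sexes. Zardc17484 lies at -2.15 in males and -1.51 in females on the left, and Zardc17532 at 3.49 and 4.51 on the right.

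The stage changes of males and of females share no library and could be set side by side. Over the 53 members the correlation of the male and female log2 fold changes was 0.783 for stage 1 to stage 3 and 0.896 for stage 3 to stage 4, and 0.674 and 0.679 without Zardc17484 and Zardc17532. Over all genes tested it was 0.646 and 0.628. These are correlations across genes, which are not independent.

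Whether the male over female value itself changed between stages was asked by the sex by stage interaction. It cancels a sex difference that is the same at both stages, but it is built from the libraries that chose the stretch, so its tests are not independent of the choice. From stage 1 to stage 3, 0 members were called, against 2.98% of all genes tested, and 1 with an unadjusted p, Zardc17454 at -1.06. Its adjusted p was 0.064, and the call was made under quantile normalization and without any one of M1 replicate 1, M3 replicate 3, M4 replicate 3 or F2 replicate 1. The interaction was negative in 31 of 53 members, against 51.1% of all genes tested, with a median of -0.12 against -0.01. By adjusted p alone, 6 members passed from stage 1 to stage 3, against 16.6% of all genes tested, and 9 from stage 3 to stage 4, against 20.4%.

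From stage 3 to stage 4, 1 member was called, against 5.44% of all genes tested. This was Zardc17532 at -1.02 (SE 0.19, limma with Benjamini-Hochberg adjusted p = 4.6e-04), whose male over female ratio was 0.626 at stage 4, against 1.31 at stage 3. The interaction lay between -0.92 and -0.98, under the fold limit, when any one of M3 replicate 1, M4 replicate 2, F3 replicate 1, F3 replicate 3 or F4 replicate 3 was left out, and it was -0.84 under quantile normalization. The interaction was negative in 26 of 53 members, against 48.7% of all genes tested. The median of the members was 0.01, as was that of all genes tested.

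**Figure D5:**
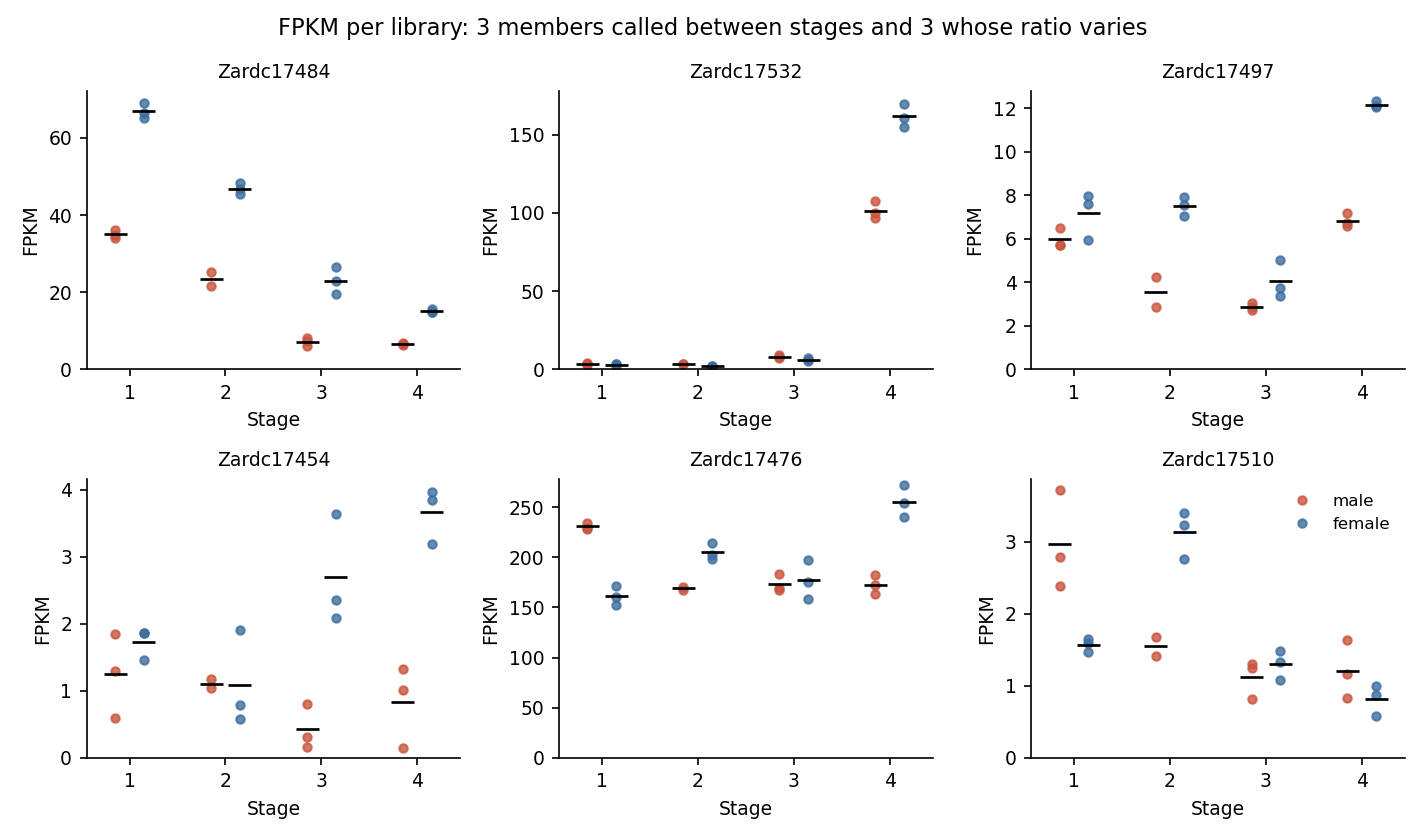
FPKM in each library (y, linear axis from 0) by stage (x) for Zardc17484, Zardc17532 and Zardc17497, which were called between stages, and for Zardc17454, Zardc17476 and Zardc17510, whose ratio varied. Male libraries are left and female libraries right at each stage, and black bars are means. Zardc17532 reaches 96.7 to 107 FPKM in M4 and 155 to 170 FPKM in F4, and Zardc17476 is higher in males at stage 1 and lower at stage 4.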

How the data were processed

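Reads of floral libraries were mapped by the authors to the species' own genome, assigned to genes by HTSeq and deposited as FPKM, as the file headers and the study's methods state. The submitters' processing notes also name Bowtie 0.12.2 and mm8, a mouse build; which aligner was used is not stated elsewhere. Of 24 libraries 23 were used: the file of M2 replicate 3 lists only 183 genes, 182 of them with the values of M3 replicate 1.

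The limit of 1 FPKM in 3 libraries set which genes were tested. Values were taken to log2(FPKM + 1), a scale that understates changes of weak genes, and limma 3.58.1 in R 4.3.3, with version 1.17.8 of the data.table package, fitted the 8 groups together, with 15 residual degrees of freedom. This test was used because the values are FPKM; the study tested read counts. The fit was also run on simulated independent values, with changes larger than the fold limit planted in genes that were not weak. That run does not cover calls at the fold limit or weak members. Ratios are of mean FPKM, without a pseudocount. Python 3.11.15 was used for ratios and figures, with pandas 2.3.3, numpy 2.4.6 and matplotlib 3.10.9.

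The members, lists and tests were chosen with earlier results of these data known. Named members were, by the log2 difference averaged over stages, the 6 lowest, up to 8 at or above 0, the 3 nearest the median, the 6 most abundant, those at the ends of the stretch with the nearest genes outside, those called between stages, and those that varied most or least over stages; any others named were chosen after their values were seen. The alternatives were pseudocounts of 0.1 and 0.5, quantile normalization, no filter, a filter in each sex, p left unadjusted, limma's test against the fold limit, a replicate block, fitting the compared groups alone, medians of libraries in place of means, and leaving out each library in turn. Scaling of all libraries to the same total FPKM, the ratio limit of 0.75 and the bounds of the empty interval around it were chosen after seeing the data. Tests for read counts were not run on FPKM.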

Additional observations from a re-analysis of the deposited data

Results flagged for a closer look

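The sex by stage interaction had a limma Benjamini-Hochberg adjusted p of at most 0.05 in 6 members from stage 1 to stage 3 and in 9 members from stage 3 to stage 4, against 16.6% and 20.4% of all genes tested. These tests are built from the libraries that chose the stretch. All values are differences of log2 fold changes, male minus female, and only Zardc17532 passed the fold limit as well. From stage 1 to stage 3 they were 0.45 for Zardc17469, -0.54 for Zardc17476, -0.55 for Zardc17483, -0.64 for Zardc17484, -0.54 for Zardc17507 and -0.73 for Zardc17510. From stage 3 to stage 4 they were 0.37 for Zardc17442, 0.52 for Zardc17448, -0.59 for Zardc17456, -0.54 for Zardc17476, 0.47 for Zardc17484, -0.52 for Zardc17504, -0.83 for Zardc17515, -0.29 for Zardc17528 and -1.02 for Zardc17532. Zardc17476 was thus negative in both steps, while Zardc17484 was negative in the first and positive in the second. Groups of 3 libraries are too small to single out a library.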

How the results depend on the processing

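The number of members called moved by over 1.5 times under these alternatives. A pseudocount of 0.1 gave 8 calls in M3 vs M1, 4 in M4 vs M3, 3 in F3 vs F1 and 4 in F4 vs F3. The test against the fold limit left 1 in M3 vs M1, 1 in M4 vs M3, 1 in F4 vs F3 and 0 in the interaction from stage 3 to 4. Scaling all libraries to the same total gave 2 in M3 vs M1. In the interaction from stage 1 to 3, an unadjusted p and quantile normalization gave 1 each; quantile normalization gave 0 from stage 3 to 4. With 1 library left out at a time, the calls were 2 to 4 in M3 vs M1, 1 to 3 in M4 vs M3, 1 in F3 vs F1, 2 to 3 in F4 vs F3 and 0 to 1 in each interaction.

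The median log2 difference, male minus female, stayed negative at each stage under all alternatives run. From stage 1 to stage 4 it was -0.38, -0.66, -0.60 and -0.63 with a pseudocount of 0.1, and -0.12, -0.14, -0.27 and -0.33 with no filter, which adds the 13 weak IDs. With a pseudocount of 0.5 it was -0.33, -0.50 and -0.54 at stages 1, 3 and 4. Scaling to the same total gave -0.30 and -0.35 at stages 3 and 4, where it also moved the median of all genes tested to 0.14 and 0.12; relative to that median the members stood at -0.43 and -0.47, against -0.44 and -0.48 unscaled. With 1 library left out it was -0.29 to -0.21 at stage 1, -0.54 to -0.40 at stage 2, -0.49 to -0.41 at stage 3 and -0.54 to -0.47 at stage 4. Members lower in males at all 4 stages numbered 28 to 32 under all alternatives run. The averaged difference changed sign in Zardc17438 and Zardc17487 under scaling and in Zardc17510 and Zardc17523 under quantile normalization, and in none of the lower members.

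Replicate numbers did not pair the libraries: the correlation of deviations over 12 pairs was -0.078 to 0.029. The fit with the replicate block called 4 members in M3 vs M1, 2 in M4 vs M3, 1 in F3 vs F1, 2 in F4 vs F3, and 0 and 1 in the interactions, the same counts as without it. Members with under 10 reads in a library, 9 in all, have ratios limited by counting.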
